A study of Mus musculus with 12 samples.

Results

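Ferritin, the sensors that regulate it and the chaperones that fill it were examined through 9 genes of mouse liver. The members were taken by gene symbol, as the ferritin chains Fth1 and Ftl1, the iron sensors Aco1, Ireb2 and Fbxl5, the ferritin cargo receptor Ncoa4, the iron chaperones Pcbp1 and Pcbp2, and the siderophore enzyme Bdh2. All 9 had a row among the 27022 genes of the count table. The study set a whole transcript RNA-Seq kit (Trad-KAPA) beside a 3′ kit (3’-LEXO). Liver RNA came from 6 female SJL/J mice, 3 control and 3 iron loaded, and each RNA went into both kits, so that there were 12 libraries. Mice were on an AIN-93G diet with 50 ppm iron from arrival at 3 weeks of age. The iron loaded mice were changed at 6 weeks to an AIN-93G diet with 2% carbonyl iron, and livers were collected from all at 11 weeks after a fast and perfusion through the heart. One cage of 4 mice was kept on each diet, and thus the effects of diet and of cage cannot be told apart below.

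Cells store iron inside ferritin, a shell built of heavy chains (Fth1) and light chains (Ftl1). When iron is scarce, the iron regulatory proteins IRP1 (Aco1) and IRP2 (Ireb2) bind a hairpin called the iron responsive element, which blocks translation when it lies in the 5′ UTR and stabilises the mRNA when it lies in the 3′ UTR. When iron is plentiful, IRP1 takes up an iron-sulfur cluster and becomes an aconitase, and FBXL5 marks IRP2 for degradation, so that ferritin is regulated to a large extent at translation, which counts of mRNA do not measure. The liver is the main store of iron in the body.

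The sequences of the hairpin are shown first, since they are what links the ferritin genes to the sensors. Annotated UTRs were searched on the transcript strand for the loop CAGTGN, with 5 paired bases (G with T allowed) on each side and an unpaired C before the stem. Of genes in the count table with a UTR long enough, 28 of 15712 (0.178%) had such an element in the 5′ UTR and 118 of 16239 (0.727%) in the 3′ UTR. Each sequence below is 30 bases of GRCm38 in the direction of the transcript, with the loop in capitals. The ferritin elements lie in the 5′ UTR of Fth1 (chr19:9982732-9982761, plus strand) and of Ftl1 (chr7:45459778-45459807, minus strand), and 26 of their 30 bases are the same. That of the iron exporter Slc40a1 (chr1:45925464-45925493, minus strand, 5′ UTR) and the first of 4 in the 3′ UTR of the transferrin receptor Tfrc (chr16:32631219-32631248, plus strand) are shown beside them.
Fth1: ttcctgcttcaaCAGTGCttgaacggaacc
Ftl1: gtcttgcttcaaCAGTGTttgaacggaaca
Slc40a1: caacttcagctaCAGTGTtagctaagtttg
Tfrc: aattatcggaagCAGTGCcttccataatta
The other 7 members held no match to this rule in their annotated UTRs.

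Ftl1 has copies elsewhere in the genome. Of its 9 copies with reads, Ftl1-ps1 had the highest identity, 99.6% over 910 bases with 4 differences. The processed pseudogene Ftl2-ps aligned to Ftl1 over 552 bases with 7 differences, an identity of 98.7%, and the longest run without a difference was 306 bases. GRCm38 is the genome of C57BL/6J, while the mice were SJL/J. Only reads that mapped to 1 place were counted. A read of 50 bases from the stretch aligned to Ftl2-ps that covers none of those 7 differences matches both places and enters neither row.

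Counts on genes ranged from 13834682 to 16553616 per Trad-KAPA library and from 10724672 to 14104236 per 3’-LEXO library. Levels are in CPM, counts scaled to the same total for each library, and 3 counts, taken as the floor, were between 0.181 and 0.280 CPM. Iron loaded mouse 1 stood apart from the others of its diet. Between libraries of one kit and diet, the chi-square per degree of freedom was lowest between iron loaded mice 2 and 3 (7.63 in 3’-LEXO, 7.83 in Trad-KAPA) and at least 68.3 between either of them and mouse 1, so that no libraries agreed within sampling noise. Hepatocyte markers made up 113153 to 155770 CPM in Trad-KAPA, and 0 of 6 were called between the diets in either kit (1, Ttr, at an unadjusted p under 0.05 in 3’-LEXO, and 0 by DESeq2). Of the Kupffer cell markers, 2 of 6 (Marco and Vsig4) rose with Trad-KAPA and 1 (Marco) in 3’-LEXO. Their sum was 298 to 477 CPM in control and 539 to 586 CPM in iron loaded libraries of Trad-KAPA, and 824 to 1073 and 1083 to 1324 CPM in 3’-LEXO. Of 5 markers of infiltrating monocytes or macrophages, 4 were tested in each kit. Of these, 3 (Gpnmb, Itgax and Trem2) rose with Trad-KAPA and 1 (Gpnmb) in 3’-LEXO. The sum of all 5 stayed low, with 2.39 to 5.13 CPM in control and 11.0 to 21.1 CPM in iron loaded libraries of Trad-KAPA. Blood markers, mainly hemoglobin genes, summed to 17.0 to 140 CPM in control and 14.0 to 24.4 CPM in iron loaded Trad-KAPA libraries, and 0 of 3 tested were called in either kit, although all 3 had an unadjusted p under 0.05 in both and DESeq2 called 1 (Hba-a2) in 3’-LEXO. Of 4 markers of sinusoidal endothelial cells, Lyve1 rose in both kits and Stab2 fell in 3’-LEXO. Of the other markers tested, edgeR called 0 of 4 of stellate cells and 0 of 2 of cholangiocytes in either kit, and 0 of 3 of lymphocytes with Trad-KAPA and 0 of 2 in 3’-LEXO. Sox9 in both kits and Reln and Col1a1 in 3’-LEXO had an unadjusted p under 0.05, and DESeq2 called Col1a1 in 3’-LEXO. No marker of these lists was at 0 in all libraries. In whole liver, fewer cells of a type and less RNA per cell cannot be told apart, and the part of these cell types in the results below was not tested.

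The first comparison asked which of the 9 genes differed between the diets in each kit. In Trad-KAPA, Aco1 and Bdh2 fell on the iron loaded diet, by 0.59 ± 0.16 and 1.57 ± 0.45 on the log2 scale (SE). In 3’-LEXO these genes gave log2 fold changes of -0.66 ± 0.19 and -1.36 ± 0.39 and did not pass the test (adjusted p = 0.0646 and 0.0693). The row of Ftl2-ps, a pseudogene copy of Ftl1, rose in both kits, and its reads cannot be assigned to the copy or to Ftl1. The heavy chain Fth1, whose row held by far the most counts of the 9, did not pass the test in either kit. Reads that match more than 1 place are in no row, so the rows do not give the order of the mRNAs.

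The test was edgeR's quasi-likelihood test on all genes that passed a filter on low counts, with Benjamini-Hochberg adjustment, and a gene was called at an adjusted p under 0.05. All 9 genes passed the filter in both kits. In Trad-KAPA 2 of 9 were called, both lower, while 17.1% of all genes tested were called (8.37% lower). In 3’-LEXO 0 of 9 were called, against 6.10% of all genes. There, 3 of 9 (Ftl1, Aco1 and Bdh2) had an unadjusted p under 0.05, as did 3325 of all 13301 genes tested. DESeq2 called 2 of 9 (Aco1 and Bdh2), and 1313 of the 13923 genes it tested. The median log2 fold change of the 9 was -0.02 with Trad-KAPA and 0.08 in 3’-LEXO, and over all genes tested it was 0.02 and 0.01. The CPM of the diets did not overlap for 3 of 9 genes in Trad-KAPA, against 41.2% of all genes tested, and for 5 of 9 in 3’-LEXO, against 31.3%.

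**Figure D1:**
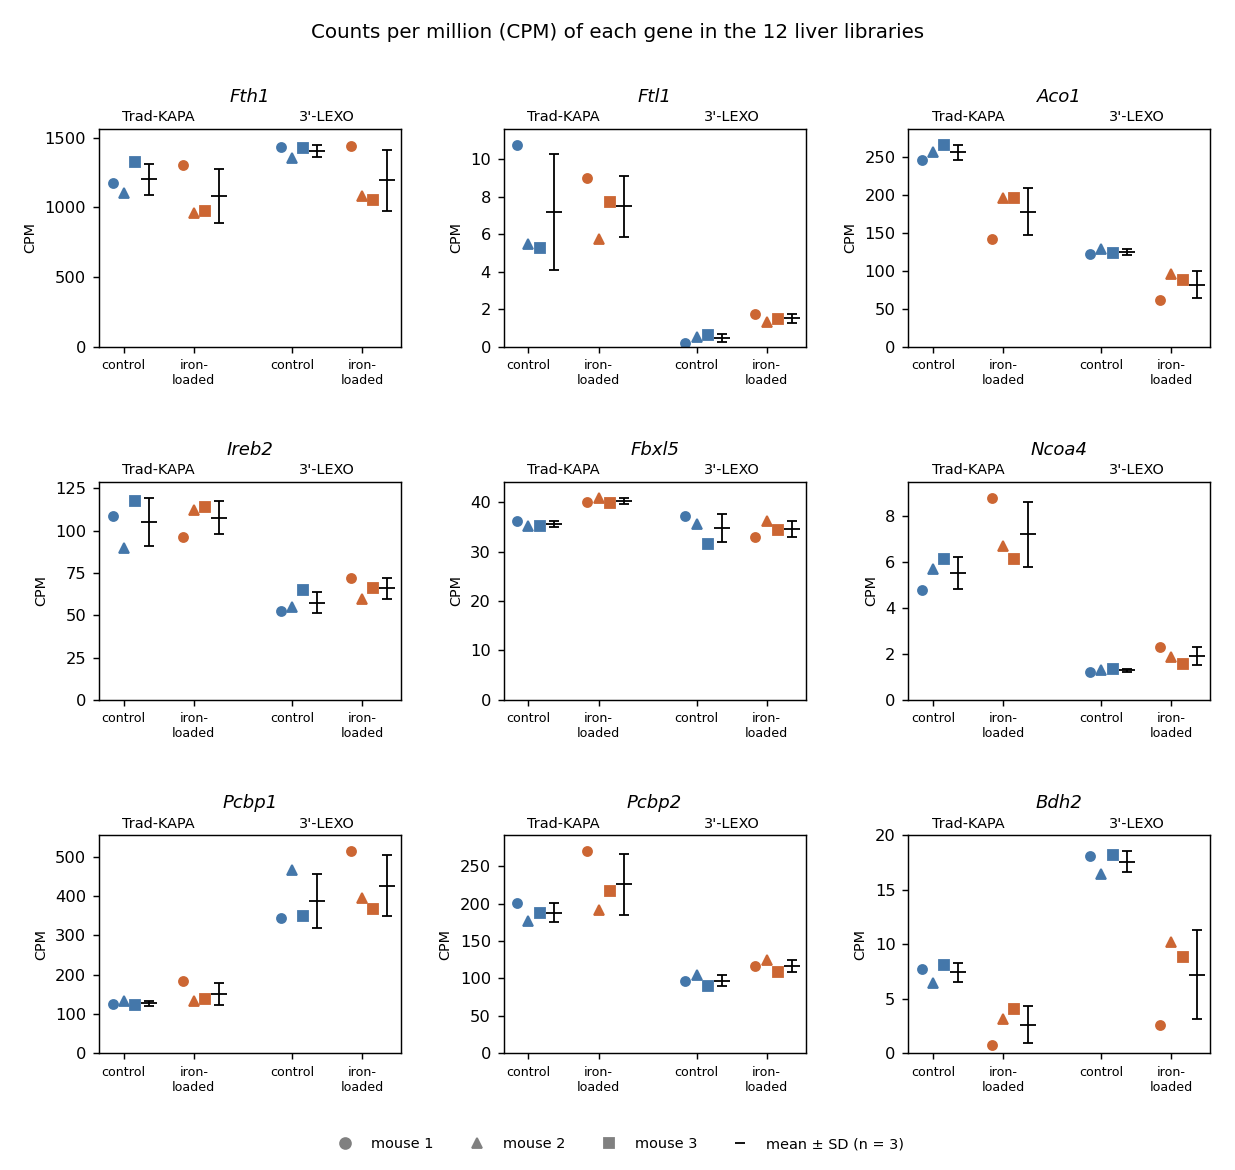
CPM (vertical axes, linear and from 0) of each of the 9 genes in control (blue) and iron loaded (orange) libraries of both kits, with 1 symbol per mouse and the mean ± SD of 3 mice in black. Aco1 and Bdh2 sat lower in all iron loaded libraries than in any control library of the same kit, and iron loaded mouse 1 was the lowest for both.

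**Figure D2:**
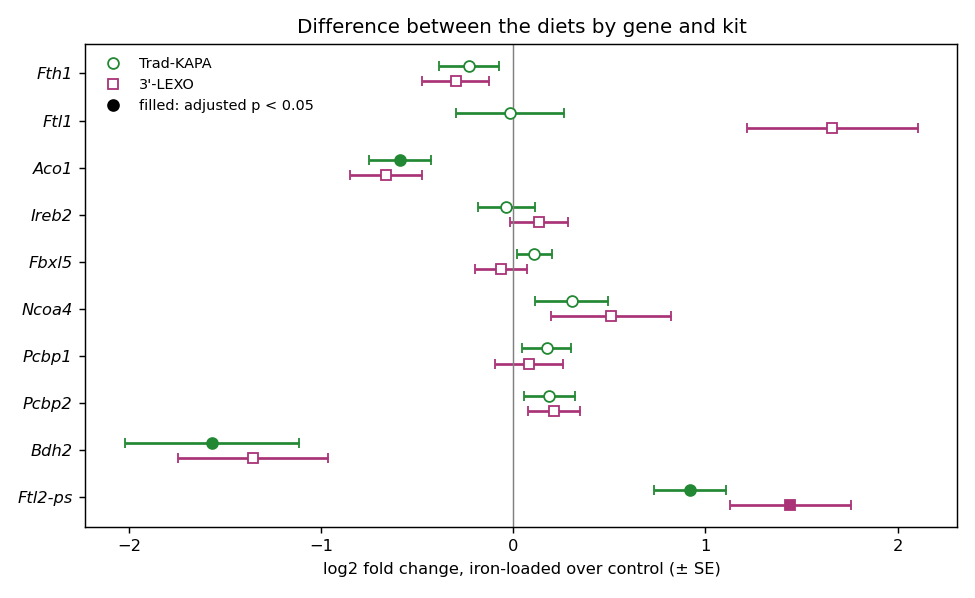
Log2 fold change of iron loaded over control (± SE, 3 against 3 libraries) of the 9 genes and of Ftl2-ps in Trad-KAPA (circles) and 3’-LEXO (squares), filled where the adjusted p was under 0.05. The filled symbols are Aco1 and Bdh2 with Trad-KAPA and Ftl2-ps in both kits, and Ftl1 is near 0 with Trad-KAPA and at 1.66 in 3’-LEXO.

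Fth1 (ENSMUSG00000024661, chromosome 19 from 9980598 to 9985098, plus strand) encodes the heavy chain, which holds the ferroxidase site. In Trad-KAPA it had 1173, 1105 and 1324 CPM in control mice 1, 2 and 3 and 1308, 959.8 and 977 CPM in iron loaded mice 1, 2 and 3. With 3’-LEXO the levels were 1433, 1353 and 1427 CPM in the control and 1442, 1081 and 1056 CPM in the iron loaded mice. In both kits iron loaded mice 2 and 3 lay below every control, while iron loaded mouse 1 lay within or above the controls, so that the groups overlapped. The log2 fold change was -0.23 ± 0.16 (SE, adjusted p = 0.329) with Trad-KAPA and -0.30 ± 0.17 (adjusted p = 0.316) in 3’-LEXO. It stayed below 0 in all 16 alternatives of each kit and was called in none of them. Only 6.59% of the 50-base windows of its reference transcript were found in another annotated gene, the processed pseudogene Gm6977, and none of these lay in the last 300 bases. Gm6977 took 56 reads in all 12 libraries together, so that adding it left Fth1 almost where it was, at 1201 ± 112 CPM (SD, n = 3) in control and 1082 ± 196 CPM in iron loaded mice in Trad-KAPA. The 9 other Fthl17 genes and pseudogenes searched shared no window with it. Unannotated copies of either ferritin chain were not searched.

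Ftl1 (ENSMUSG00000050708, chromosome 7 from 45457944 to 45459884, minus strand) encodes the light chain, which supports the laying down of the iron core. Its row held far fewer reads than that of Fth1. In Trad-KAPA the counts were 178, 82 and 73 in the control mice (10.8, 5.49 and 5.28 CPM) and 126, 84 and 107 in the iron loaded mice (8.997, 5.74 and 7.69 CPM). In 3’-LEXO they were 3, 7 and 9 in the control mice (0.214, 0.501 and 0.638 CPM) and 23, 14 and 16 in the iron loaded mice (1.76, 1.31 and 1.45 CPM). The diets overlapped in Trad-KAPA, where control mouse 1 was highest of all, and did not overlap in 3’-LEXO, where control mouse 1 was at the floor of 3 reads. Between the diets the log2 fold change was -0.02 ± 0.28 (SE, adjusted p = 0.971) with Trad-KAPA and 1.66 ± 0.44 (adjusted p = 0.0557) in 3’-LEXO. In Trad-KAPA its sign turned in 7 of 16 alternatives, and without control mouse 1 it was 0.38. In 3’-LEXO it was called in 5 of 16 alternatives, with an adjusted p between 0.028 and 0.158.

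Ftl1 shared far more sequence with other genes than Fth1. Of the 50-base windows of the Ftl1 reference transcript, 74.8% were also found in transcripts of other annotated genes, 15 in all, and in the last 300 bases 45.8% were. Of those genes, 9 had reads, from 4441 in Ftl2-ps over all 12 libraries to 86 in Gm12164, 30 in Ftl1-ps2 and 7 in the lowest. Ftl1-ps1, with 18 reads, held 675 of the 688 windows shared over all annotated Ftl1 transcripts, while Ftl2-ps held 273. Reads of one of these rows cannot be assigned to the copy or to Ftl1 from the counts. Ftl2-ps (chromosome 4 from 125504288 to 125504839) took between 32.9% (Wilson 95% interval 27.7 to 38.5) and 67.3% (61.9 to 72.4) of the reads of a Trad-KAPA library in the rows of Ftl1 and its copies together. In 3’-LEXO it took between 93.7% (91.3 to 95.5) and 96.2% (93.5 to 97.8), and Ftl1 itself between 1.18% (0.402 to 3.41) and 2.79% (1.67 to 4.63). These intervals cover counting error only.

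**Figure D3:**
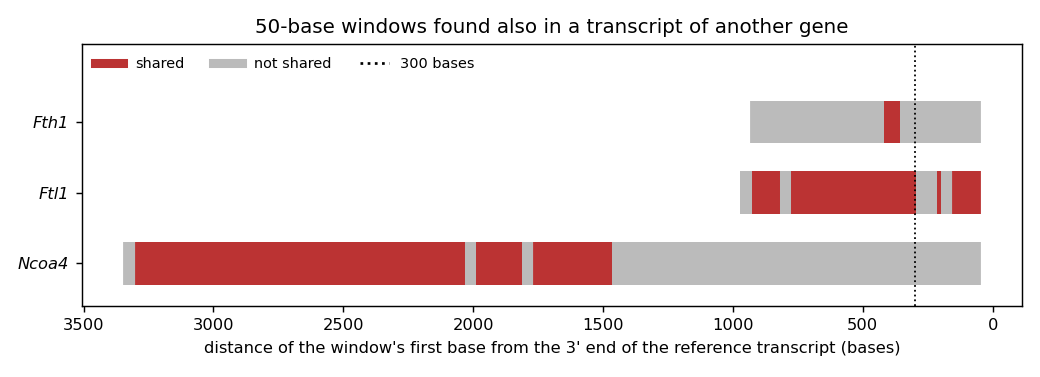
Position of 50-base windows along the reference transcripts of Fth1, Ftl1 and Ncoa4, as the distance in bases from the 3′ end to the first base of the window, in red where the window was also found in an annotated transcript of another gene and in grey where it was not. Shared windows cover 74.8% of Ftl1 and reach its 3′ end, while in Fth1 (6.59%) and Ncoa4 (52.5%) none lies in the last 300 bases (dotted line).

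The Ftl2-ps row rose with iron loading in both kits. In Trad-KAPA it had 5.74, 6.23 and 8.46 CPM in the control mice and 13.1, 13.9 and 13.5 CPM in the iron loaded mice. The 3’-LEXO libraries gave 17.4, 21.8 and 35.0 CPM in the control and 96.6, 44.2 and 71.5 CPM in the iron loaded mice. The diets did not overlap in either kit. The log2 fold change was 0.92 ± 0.19 (SE, adjusted p = 0.0163) with Trad-KAPA and 1.44 ± 0.32 (adjusted p = 0.0307) in 3’-LEXO. The call held in 12 of 15 alternatives of each kit. It was lost in Trad-KAPA without control mouse 1 or 2 (adjusted p = 0.0541 and 0.0653), and in 3’-LEXO without control mouse 1 or 2 or iron loaded mouse 3 (0.110, 0.118 and 0.0715). In Trad-KAPA it was also lost when all 12 libraries were put in 1 fit (0.0642).

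Added up, the rows of Ftl1 and its 9 copies with reads came to 14.6 ± 2.67 CPM (SD, n = 3) in control and 22.2 ± 1.28 CPM in iron loaded mice in Trad-KAPA. In 3’-LEXO the sums were 26.0 ± 10.02 and 74.6 ± 27.5 CPM. The summed rows did not overlap between the diets, with 12.2 to 17.5 against 20.7 to 23.1 CPM with Trad-KAPA and 18.1 to 37.3 against 46.8 to 102 CPM in 3’-LEXO. Put into the fit in place of Ftl1, the sum gave a log2 fold change of 0.53 (adjusted p = 0.0367) with Trad-KAPA and of 1.44 (adjusted p = 0.0327) in 3’-LEXO, and passed the test in both. In both kits the call therefore depended on which rows were counted.

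**Figure D4:**
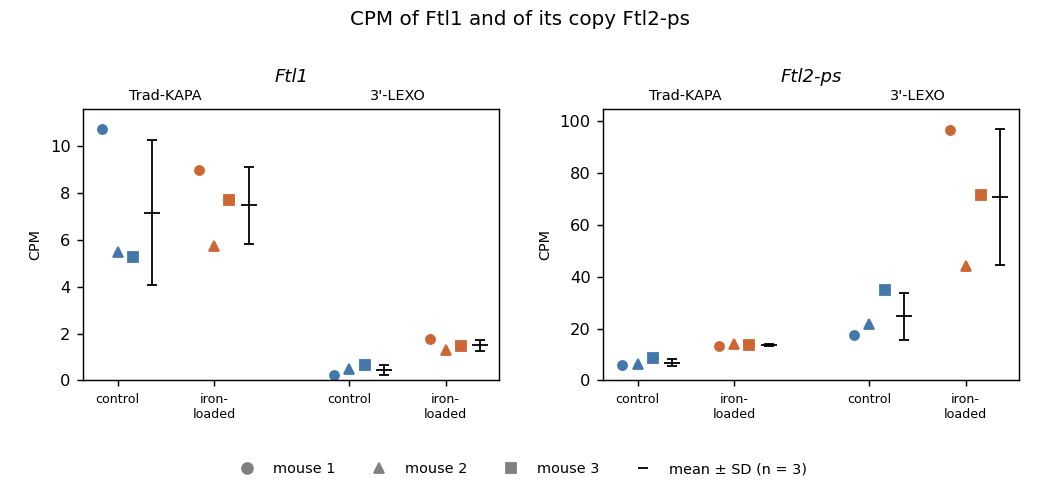
CPM (linear axes from 0, with a different range in each panel) of Ftl1 and of the pseudogene Ftl2-ps in each library, with 1 symbol per mouse, control in blue, iron loaded in orange and the mean ± SD of 3 mice in black. In 3’-LEXO the Ftl2-ps row reaches 96.6 CPM while Ftl1 stays at or below 1.76 CPM.

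The ratio of light to heavy chain counts does not depend on the scaling of a library. In Trad-KAPA the ratio of Ftl1 to Fth1 was 0.00604 ± 0.00275 (SD, n = 3) in control and 0.00691 ± 0.000947 in iron loaded mice, and the groups overlapped (exact permutation test, two-sided, p = 0.5). In 3’-LEXO it was 0.000322 ± 0.000154 and 0.00127 ± 0.0000935, and the groups did not overlap (exact p = 0.1, the smallest that 3 against 3 allow). With the copies added to both genes the ratio was 0.0122 ± 0.00234 against 0.0208 ± 0.00288 with Trad-KAPA and 0.0185 ± 0.00691 against 0.0617 ± 0.0159 in 3’-LEXO, without overlap in either (exact p = 0.1 each). Reads that match more than 1 place are in no row, so adding the copies does not bring them back. Shared windows made up 74.8% of the Ftl1 reference transcript and 6.59% of that of Fth1, so these ratios are not those of the mRNAs. Fth1 and Ftl1 together were 0.121 ± 0.0112% of counts in control and 0.109 ± 0.0198% in iron loaded mice in Trad-KAPA, while 3’-LEXO gave 0.140 ± 0.00446% and 0.119 ± 0.0216%, with overlap in both (exact p = 0.4 each). Each measure was tested in both kits with and without the copies, and over these 8 exact permutation tests the Benjamini-Hochberg adjusted p was 0.267 for the lowest.

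Of the sensors, Aco1 (ENSMUSG00000028405, chromosome 4 from 40143081 to 40198338, plus strand) encodes cytosolic aconitase, which is IRP1 when it lacks its cluster. In Trad-KAPA it had 246, 257 and 265 CPM in the control mice and 142, 196 and 196 CPM in the iron loaded mice. In 3’-LEXO it had 122, 129 and 123 CPM in the control and 61.4, 95.9 and 87.5 CPM in the iron loaded mice. All iron loaded libraries lay below all control libraries of their kit, and iron loaded mouse 1 was the lowest in both. The fitted level was 1.504-fold lower in Trad-KAPA (log2 fold change -0.59 ± 0.16, SE, adjusted p = 0.0406) and 1.58-fold lower in 3’-LEXO (-0.66 ± 0.19, adjusted p = 0.0646). The call in Trad-KAPA was lost without any 1 mouse other than iron loaded mouse 1, with an adjusted p between 0.0613 and 0.123. Without iron loaded mouse 1 the log2 fold change was -0.42 (adjusted p = 0.0182) with Trad-KAPA and -0.48 (0.0609) in 3’-LEXO. With iron loaded mice 2 and 3, which differed least, summed to 1 library, it was -0.67 (0.0653) and -0.78 (0.0822). DESeq2 called Aco1 in 3’-LEXO (adjusted p = 0.021).

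Ireb2 (ENSMUSG00000032293, chromosome 9 from 54863789 to 54912530, plus strand) encodes IRP2, which senses iron through its own turnover. It had 108, 89.8 and 117 CPM in the control and 96.3, 112 and 114 CPM in the iron loaded mice in Trad-KAPA. With 3’-LEXO the levels were 52.7, 55.1 and 64.8 CPM in the control and 72.3, 59.9 and 66.0 CPM in the iron loaded mice. The diets overlapped in both kits. Between the diets the log2 fold change was -0.04 ± 0.15 (SE, adjusted p = 0.884) with Trad-KAPA and 0.14 ± 0.15 (0.617) in 3’-LEXO.

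Fbxl5 (ENSMUSG00000039753, chromosome 5 from 43744615 to 43821638, minus strand) encodes the F-box protein that binds iron and directs IRP2 to the proteasome. It was the steadiest of the 9 in Trad-KAPA, with 36.2, 35.2 and 35.2 CPM in the control and 40.0, 40.9 and 39.8 CPM in the iron loaded mice. The 3’-LEXO libraries gave 37.2, 35.5 and 31.6 CPM in the control and 33.0, 36.3 and 34.4 CPM in the iron loaded mice. The diets did not overlap with Trad-KAPA and overlapped in 3’-LEXO. The log2 fold change was 0.11 ± 0.09 (SE, adjusted p = 0.433) with Trad-KAPA and -0.06 ± 0.14 (0.805) in 3’-LEXO, and passed the test in neither. Its exons overlap those of Bst1 on the other strand over 98 bases.

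Ncoa4 (ENSMUSG00000056234, chromosome 14 from 32159865 to 32179855, plus strand) encodes the receptor that brings ferritin to the autophagosome, where its iron is set free. In Trad-KAPA it had 4.77, 5.69 and 6.14 CPM in the control and 8.78, 6.69 and 6.11 CPM in the iron loaded mice. In 3’-LEXO it had 1.21, 1.29 and 1.35 CPM in the control and 2.30, 1.86 and 1.55 CPM in the iron loaded mice, from 17 to 30 reads per library. The diets overlapped in Trad-KAPA by a narrow margin and did not overlap in 3’-LEXO. Between the diets the log2 fold change was 0.30 ± 0.19 (SE, adjusted p = 0.291) with Trad-KAPA and 0.51 ± 0.31 (0.339) in 3’-LEXO, and was above 0 in all 15 alternatives of each kit without a call. Of the windows of its reference transcript, 52.5% were shared with the pseudogene Gm6768, which had 28 reads in the Trad-KAPA libraries together and 0 in 3’-LEXO. A read equal to a shared window matches both places and enters neither row, as for Ftl1. No shared window lay in the last 300 bases.

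The chaperones Pcbp1 and Pcbp2 bind iron in the cytosol and hand it to ferritin, and both also bind poly(C) stretches of RNA. Pcbp1 (ENSMUSG00000051695, chromosome 6 from 86524492 to 86526321, minus strand), a gene of 1 exon, had 125, 134 and 122 CPM in the control and 184, 131 and 137 CPM in the iron loaded mice in Trad-KAPA. With 3’-LEXO the levels were 346, 467 and 350.4 CPM in the control and 515, 396 and 369 CPM in the iron loaded mice. Iron loaded mouse 1 was the highest in both kits and the diets overlapped in both. The log2 fold change was 0.17 ± 0.13 (SE, adjusted p = 0.368) with Trad-KAPA and 0.08 ± 0.18 (0.818) in 3’-LEXO, and without iron loaded mouse 1 it was 0.045 and -0.06. Of its exon, 75 bases overlap the antisense gene 1600020E01Rik.

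Pcbp2 (ENSMUSG00000056851, chromosome 15 from 102470539 to 102500061, plus strand) had 200.4, 176 and 188 CPM in the control and 270.1, 191 and 216 CPM in the iron loaded mice in Trad-KAPA. The 3’-LEXO libraries gave 97.0, 104 and 89.9 CPM in the control and 117, 125 and 108 CPM in the iron loaded mice. The diets overlapped with Trad-KAPA and did not overlap in 3’-LEXO. Between the diets the log2 fold change was 0.19 ± 0.13 (SE, adjusted p = 0.343) with Trad-KAPA and 0.21 ± 0.13 (0.355) in 3’-LEXO, above 0 in all 15 alternatives of each kit and called in none. Without iron loaded mouse 1 the Trad-KAPA value was 0.077. Its exons overlap those of 3 other genes, mainly Map3k12 on the other strand, over 1884 bases in all. Whether strand was used in counting was not given in the sources used here.

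Bdh2 (ENSMUSG00000028167, chromosome 3 from 135281221 to 135304426, plus strand) encodes a cytosolic dehydrogenase that has been linked to the synthesis of a mammalian siderophore, a small molecule that binds iron. It had the largest fall of the 9 genes. In Trad-KAPA the counts were 128, 96 and 112 in the control mice (7.73, 6.43 and 8.10 CPM) and 10, 45 and 56 in the iron loaded mice (0.714, 3.07 and 4.02 CPM). In 3’-LEXO they were 253, 230 and 256 in the control mice (18.1, 16.5 and 18.2 CPM) and 33, 109 and 97 in the iron loaded mice (2.53, 10.2 and 8.82 CPM). Every iron loaded library lay below every control library of its kit, the controls lay close together, and iron loaded mouse 1 was the lowest in both kits. The fitted level was 2.96-fold lower in Trad-KAPA (log2 fold change -1.57 ± 0.45, SE, adjusted p = 0.0479) and 2.56-fold lower in 3’-LEXO (-1.36 ± 0.39, adjusted p = 0.0693). Without iron loaded mouse 1 the fall was smaller but passed the test in both kits, with log2 fold changes of -1.10 (adjusted p = 0.0084) with Trad-KAPA and -0.93 (0.00897) in 3’-LEXO. In Trad-KAPA the call was lost without any 1 control mouse or without iron loaded mouse 2, with an adjusted p between 0.0809 and 0.136. With iron loaded mice 2 and 3 summed it was -1.74 (0.0660) and -1.57 (0.0783). DESeq2 called Bdh2 in 3’-LEXO (adjusted p = 0.011). Its fall was larger than the SD between mice in both kits.

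Other genes of iron storage and sensing were read from the same fits as context. Among 7 other transcripts known to carry an iron responsive element, 1 rose in each kit, Slc40a1, which encodes the iron exporter ferroportin. It had 259, 242 and 237 CPM in the control and 427, 498 and 502 CPM in the iron loaded mice in Trad-KAPA. The log2 fold change was 0.89 ± 0.13 (SE, adjusted p = 0.00541) with Trad-KAPA and 0.68 ± 0.16 (0.0411) in 3’-LEXO. In 3’-LEXO the call was lost with any 1 mouse left out except iron loaded mouse 1, with an adjusted p between 0.105 and 0.138. Alas2, the erythroid enzyme of heme synthesis, had an unadjusted p under 0.05 in both kits, with log2 fold changes of -1.08 (adjusted p = 0.134) with Trad-KAPA and -1.09 (0.188) in 3’-LEXO, and DESeq2 did not call it. Slc40a1 is also made by Kupffer cells, whose summed markers are given above, and their part was not tested.

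Among 6 partners of FBXL5 and NCOA4, 2 were called with Trad-KAPA and 0 in 3’-LEXO, against 17.1% and 6.10% of all genes tested. In 3’-LEXO 2 had an unadjusted p under 0.05, as did 3325 of all 13301 genes tested. DESeq2 called 1 there (Skp1a), and 1313 of the 13923 genes it tested. Tax1bp1, an autophagy receptor that works with NCOA4, rose by a log2 fold change of 0.37 ± 0.10 (SE, adjusted p = 0.0329) with Trad-KAPA and gave 0.34 ± 0.15 (0.194) in 3’-LEXO. Skp1a, an adaptor of the ubiquitin ligase that holds FBXL5, fell by 0.37 ± 0.11 on the log2 scale (adjusted p = 0.0476) with Trad-KAPA and gave -0.52 ± 0.16 (0.0783) in 3’-LEXO. Cul1, of the same list, went the other way and was not called. It gave 0.34 ± 0.10 (unadjusted p = 0.00999, adjusted p = 0.0543) with Trad-KAPA and 0.21 ± 0.15 (adjusted p = 0.407) in 3’-LEXO. Of 4 partners and relatives of the chaperones, of the ferritin receptors Scara5 and Timd2, and of the Bdh2 relative Bdh1, none of those tested was called in either kit, and Scara5 was tested only in Trad-KAPA. Scara5 and Timd2 with Trad-KAPA and the PCBP1 partner Bola2 in 3’-LEXO had an unadjusted p under 0.05, and DESeq2 called Bola2 there. No row of the count table was found for mitochondrial ferritin (Ftmt).

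Whether the kits differed in the effect of diet was tested with an interaction term for diet and kit, fitted to all 12 libraries. The fit held no term for the mouse, although each mouse gave a library in both kits. The interaction was called for 0 of 14384 genes (0.00%), with 402 at an unadjusted p under 0.05 and 0 by DESeq2, and so for 0 of the 9. The largest of the 9 was that of Ftl1, with 1.68 ± 0.53 (SE, unadjusted p = 0.00716, adjusted p = 1.00) more on the log2 scale in 3’-LEXO. Without control mouse 1, which had 178 Ftl1 reads with Trad-KAPA and 3 in 3’-LEXO, it was 0.97. The other 8 interactions lay between -0.18 and 0.21. A number names the same mouse in both kits. With the mouse as a block, 5 genes were called, 1026 had an unadjusted p under 0.05 and Ftl1 had an adjusted p of 0.395.

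The kits gave different levels for most of the 9 genes from the same RNA. In a fit of kit with diet as a term, 7 of 9 were called, as were 77.0% of all genes tested. Ftl1 was 2.98 ± 0.31 lower on the log2 scale in 3’-LEXO (SE), the largest difference of the 9, and its copy Ftl2-ps was 2.15 ± 0.22 higher. Ncoa4, Aco1, Pcbp2 and Ireb2 were also lower in 3’-LEXO, with log2 differences of -1.99 ± 0.16, -1.08 ± 0.12, -0.95 ± 0.08 and -0.78 ± 0.11. Pcbp1 and Bdh2 were higher in 3’-LEXO, by 1.56 ± 0.10 and 1.33 ± 0.32. Among these 7, the highest adjusted p was 0.00137, that of Bdh2, and the direction was the same in 6 of 6 mice for each. Fbxl5 (-0.12 ± 0.07, adjusted p = 0.15) and Fth1 (0.19 ± 0.11, adjusted p = 0.120) were not called, although Fbxl5 was without control mouse 1 (-0.20, adjusted p = 0.0424). With the mouse as a block, Fth1 passed the test (0.19 ± 0.05, adjusted p = 0.00268), and it was higher in 3’-LEXO in 6 of 6 mice.

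**Figure D5:**
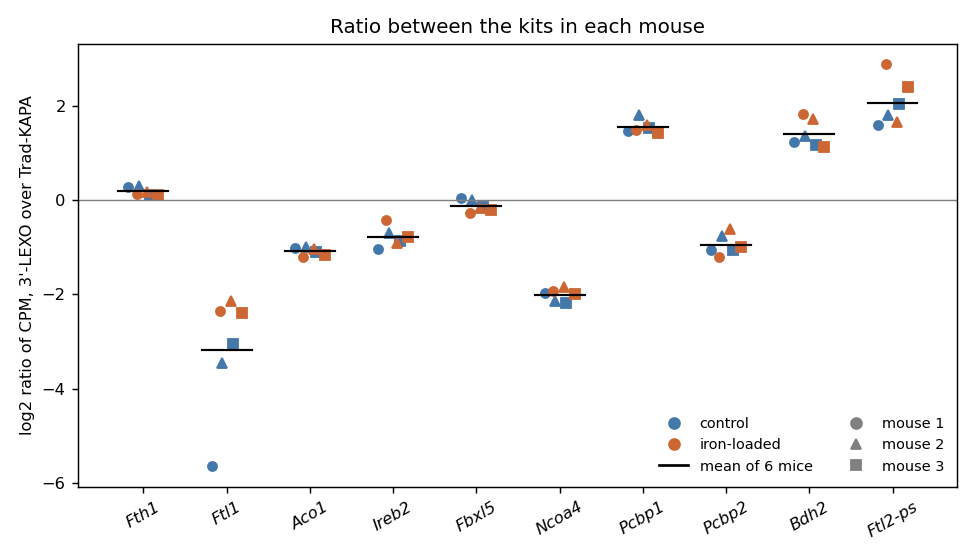
Log2 ratio of CPM in 3’-LEXO over Trad-KAPA for the same mouse, for the 9 genes and Ftl2-ps, with control mice in blue, iron loaded mice in orange and the mean of 6 mice as a bar. Ftl1 lies lowest (mean -3.17, and -5.65 in control mouse 1, which had 3 reads in 3’-LEXO), and Pcbp1, Bdh2 and Ftl2-ps lie above 0 in all mice.

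For an order of levels, CPM was divided by the length of the reference transcript in kilobases, and the order was taken within each diet. In Trad-KAPA, where reads come from the whole transcript, Fth1 was highest in the control mice with 1292 ± 121 CPM per kb (SD, n = 3). It was followed by Pcbp1 (69.3 ± 3.34), Aco1 (66.8 ± 2.60), Pcbp2 (63.7 ± 4.13), Ireb2 (18.2 ± 2.45), Fbxl5 (12.4 ± 0.215), Ftl1 (7.41 ± 3.20), Bdh2 (7.01 ± 0.827) and Ncoa4 (1.66 ± 0.209). The ranges of Pcbp1 and Aco1, of Aco1 and Pcbp2, and of Ftl1 and Bdh2 overlapped, and those of the other neighbours did not. In the iron loaded mice Pcbp2 (76.5 ± 13.7) stood above Aco1 (46.5 ± 8.07) without overlap, and Bdh2 (2.46 ± 1.61) overlapped Ncoa4 (2.15 ± 0.420). Divided by the length of all annotated exons instead, the mean of Aco1 was above that of Pcbp2 in the control mice (56.9 ± 2.22 against 36.1 ± 2.34 CPM per kb). In the iron loaded mice it was below that of Pcbp2 (39.6 ± 6.88 against 43.4 ± 7.78). On that scale the mean of Ftl1 over both diets (5.47 ± 1.66, n = 6) was above that of Fbxl5 (3.89 ± 0.269).

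In 3’-LEXO a transcript gives reads near its 3′ end whatever its length, and the order among the lower genes depended on the scale. Undivided, Ireb2 (61.8 ± 7.32 CPM, SD, n = 6 mice of both diets) was above Fbxl5 (34.6 ± 2.08), Bdh2 (12.4 ± 6.28), Ncoa4 (1.59 ± 0.418) and Ftl1 (0.9795 ± 0.613). Per kb of the reference transcript, Bdh2 (16.6 ± 0.904 CPM per kb, n = 3) was above Fbxl5 (12.2 ± 0.993) and Ireb2 (9.97 ± 1.11) in the control mice and below both in the iron loaded mice (6.77 ± 3.85 against 12.1 ± 0.579 and 11.4 ± 1.079). The ranges of Fbxl5 and Ireb2 overlapped in both diets. Fth1 and then Pcbp1 were highest on either scale. The place of Ftl1 in both kits, and that of Ncoa4 in Trad-KAPA, holds only for reads that map to the gene and to no copy.

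The genes whose levels followed Fth1, Ftl1 and Bdh2 most closely were found by the mean of Pearson's r over both kits, each over 6 libraries, among 12229 genes tested in both. These values are a description, since 6 libraries of 2 diets from the same mice share diet, depth and RNA. Nearest to Bdh2 were Uroc1 (mean r 0.996), Olfml1 (0.994) and Fam129b (0.994). Nearest to Fth1 were Aldh1a1 (0.971), 2810021J22Rik (0.959) and Arntl (0.959). For Ftl1 the nearest were Trp53bp2 (0.907), Prkcd (0.880) and Ankrd54 (0.872), so that its row had the weakest neighbours among them.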

How the data were processed

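The authors mapped single-end reads of 50 bases with STAR 2.5.3a to GRCm38 and counted, per gene, exonic reads with a single mapping position. The deposited count values are raw, with neither normalization nor subsampling. The counting program and annotation release are not given in the sources used here. Of 27022 gene identifiers, 26949 were found in GENCODE M21, which gave symbols, positions and lengths.

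Diets were compared within each kit, 3 against 3 libraries, with the edgeR 4.0.16 (R 4.3.3, limma 3.58.1) quasi-likelihood F test, TMM, filterByExpr and Benjamini-Hochberg adjustment over all genes. The SE of a log2 fold change was taken as its size divided by the square root of F. The kits and the interaction of diet and kit were tested over all 12 libraries. The fits were tested on simulated counts. DESeq2 1.42.0 and the other alternatives are described in the closing section. The sequence of 1 stretch is not reported here. Shared windows are runs of 50 bases found in an annotated transcript of another gene. The 9 members, the context lists and the marker lists were chosen with earlier results of these data known. Beyond the 9 members, the genes named were those of the context lists called in either kit and the copies with most reads. Also named were Ftl1-ps1, the copy with the highest identity to Ftl1, and the 3 genes most like Fth1, Ftl1 and Bdh2. Genes named as having only an unadjusted p under 0.05 or a call by DESeq2 were chosen after their values were seen.

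The number of a mouse is the same in both kits by the labels and methods. Over the 10326 genes averaging at least 50 counts, r between the deviations of its libraries was 0.435 to 0.765, and 5 of 6 mice correlated best with their own number. Python 3.11.15, numpy 2.4.6, pandas 2.3.3, scipy 1.17.1, Biopython 1.88 and matplotlib 3.10.9 were used for other steps.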

Additional observations from a re-analysis of the deposited data

How the results depend on the processing

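The members' calls lay near the threshold in both kits. In Trad-KAPA 2 were called. With library totals in place of TMM 1 was (Aco1), with all 12 libraries in 1 fit 1 (Aco1), with iron loaded mice 2 and 3 summed 0, with the ferritin copies summed 3, and without 1 mouse 0 to 2. In 3’-LEXO 0 were called. With DESeq2 2 were, with no filter on low counts 3, with library totals 1, with 10 M counts drawn per library 1, with the ferritin copies summed 1, with all 12 libraries in 1 fit 2, and without 1 mouse 0 to 1. The log2 fold change of Ftl1 in Trad-KAPA turned to 0.0508 with library totals, 0.0264 with 10 M counts, 0.0358 with mice 2 and 3 summed and 0.53 with the copies summed, and lay between -0.19 and 0.38 without 1 mouse. That of Ireb2 in Trad-KAPA turned to 0.0330 with library totals and lay between -0.15 and 0.0828 without 1 mouse. That of Pcbp1 in 3’-LEXO lay between -0.0552 and 0.20 without 1 mouse. Without 1 mouse, the interactions of Pcbp1 and Pcbp2 lay between -0.13 and 0.0172 and between -0.12 and 0.19. The cause of these changes was not tested.

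Over all genes, 2255 were called in Trad-KAPA, 1147 with mice 2 and 3 summed, and from 841 (without control mouse 2) to 2803 (without iron loaded mouse 1). Of those 2255, 51.2% were higher, against 61.5% of the calls with library totals. In 3’-LEXO 811 were called, 1313 with DESeq2, 2040 with no filter, 445 with mice 2 and 3 summed, 1681 with all 12 libraries in 1 fit, and from 199 (without control mouse 3) to 871 (without iron loaded mouse 1). The interaction was called for 0 genes, for 7 with no filter and for 5 with the mouse as a block.

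Across diets a number names no pair. With the replicate number as a block, 1922 genes passed the test for Trad-KAPA but 436 for 3’-LEXO, the members called were Aco1 and Bdh2 for Trad-KAPA and none for 3’-LEXO, and Ftl1 in Trad-KAPA gave 0.0302. The correlation of the deviations of same-numbered libraries, the check of this pairing, was -0.02 to 0.07 for Trad-KAPA and -0.16 to 0.10 in 3’-LEXO, and in 2 and 1 of 3 numbers it was the highest.

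Ftl1 in 3’-LEXO rests on 3 to 23 reads per library and Ncoa4 on 17 to 30, which limits what their rows can show. A fit without 1 mouse leaves 2 of a diet.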
